A study of Mus musculus with 12 samples.

Results

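The genes described here are 42 interferon-stimulated genes outside the main signalling components of the pathway, listed by symbol and followed in stromal cells cultured from mouse small intestine and treated with lipopolysaccharide (LPS). Of the 42 symbols, 40 had at least 1 count in a library, out of 18810 genes with a count. Ifi27 was read from the row of Ifi27l1, which RefSeq gives as a synonym of this gene alone. RefSeq also gives Ifi27 as a synonym of a neighbouring gene, Ifi27l2a, which has a row of its own and is no member. Rnf213 and Helz2 had no row and were not analysed here. A filter on low values, more than 0.5 CPM (counts scaled to 1e6 per library) in all 3 libraries of at least 1 group, left 39 of the 40 among 13038 genes tested, and Ifitm1 fell below it. The libraries came from 4 groups of 3: cells of E14.5 embryonic C57BL6/J intestine given PBS, the same given LPS, cells of adult intestine given PBS, and adult cells given LPS. LPS from Escherichia coli O111:B4 was applied for 6 h, at a labelled concentration of 10 µg/µl, to cells at passage 2 to 3. An embryonic culture pooled the intestines of several embryos, whereas the adult cultures came from separate mice, and all groups shared the same growth medium, which included the ROCK inhibitor Y27632. The labels call the cells intestinal myofibroblasts. The 9 stromal marker genes checked here were detected in every library, with a summed level of 22334 to 42553 CPM, and the cultures also held other cell types, as given below.

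Interferons are cytokines that cells release on sensing microbial products. Binding of type I interferon to its receptor activates Janus kinases, and these set off the assembly of a complex that contains Irf9 and binds the interferon-stimulated response element (ISRE) upstream of target genes. The products of these targets block viral entry, viral RNA and viral assembly, modify proteins with ADP-ribose or ubiquitin, sense nucleic acids, or act on cell growth and death. LPS reaches the same system through Toll-like receptor 4, the adaptor Ticam1 and interferon beta. The members were grouped by role into antiviral effectors, ADP-ribosylation and ubiquitin enzymes, membrane and secreted proteins, nuclear and DNA-binding proteins, and a last group of growth, cell death and less defined proteins.

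Counts per library summed over genes ranged from 18850224 to 32672370, so that 3 counts, taken here as the floor, stood for 0.0897 to 0.145 CPM. Embryonic culture 3 stood apart from the others. The 12 macrophage marker genes summed to 2108 CPM in its PBS library and to 1455 CPM in its LPS library, against 139 to 721 CPM in the other 4 embryonic libraries and 8.95 to 104 CPM in the 6 adult libraries. The 6 endothelial markers reached 753 and 736 CPM in the PBS and LPS libraries of adult culture 2 and 195 and 181 CPM in those of adult culture 3, against 11.2 to 34.3 CPM in the remaining libraries. Siglech, a plasmacytoid dendritic cell marker, lay between 0 and 0.0351 CPM, and 3 lymphocyte markers summed to at most 0.173 CPM. In bulk RNA a change in the number of cells of a type and a change in RNA per cell cannot be told apart, and the part of these cell types in the results below was not tested.

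In PBS cultures most members were present at low to moderate levels. The group mean reached 1 CPM for 32 of 40 members in embryonic PBS and for 30 in adult PBS, and it reached 100 CPM for 1 and for 3 members. After LPS the mean was at least 100 CPM for 20 members in embryonic cells and for 4 in adult cells. The median over members of the mean level went from 6.47 to 95.7 CPM in embryonic cells and from 7.34 to 24.8 CPM in adult cells. The summed level of the 39 tested members was 590.2, 595 and 993 CPM in embryonic PBS cultures 1 to 3 and 3386, 4730 and 14693 CPM in the LPS libraries of the same cultures. In adult cells the sums were 1060, 959 and 996 CPM with PBS and 1752, 1696 and 1715 CPM with LPS. The LPS sums lay above every PBS sum in both stages, and each embryonic LPS sum lay above each adult LPS sum.

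**Figure D1:**
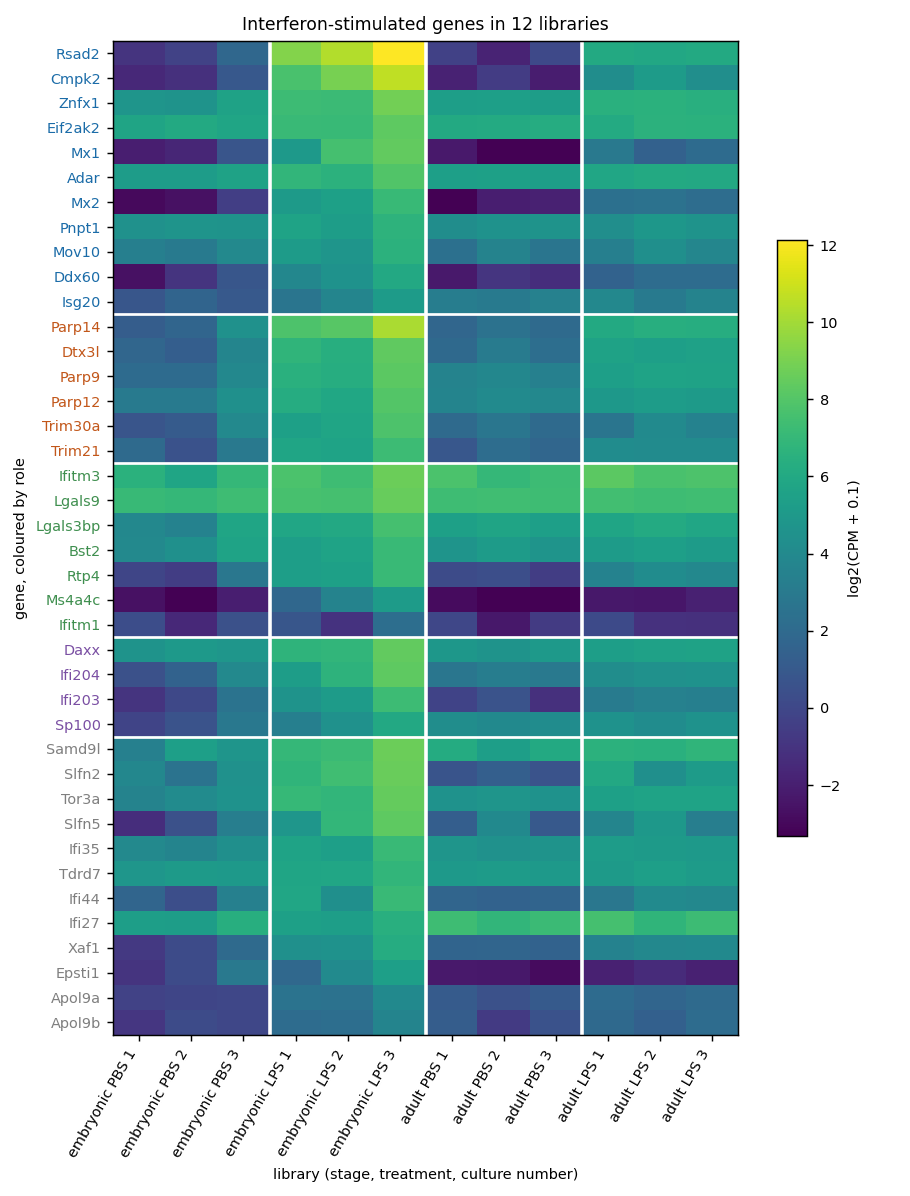
Level of the 40 members with a count in each of the 12 libraries, as log2(CPM + 0.1), with genes in rows (label colour gives the role, order within a role follows the mean level in embryonic LPS) and libraries in columns. For most genes the 3 embryonic LPS columns are the brightest, and among them culture 3 is the highest for each of the 39 tested members. The share of all tested genes was not computed.

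Per length of exon, the most abundant members in embryonic PBS cultures were Ifitm3 with a mean of 134 CPM per kb, Lgals9 with 65.6 CPM per kb and Ifi27 with 36.9 CPM per kb. Rsad2 ranked 34 of 40 there with 0.351 CPM per kb, and it ranked first after LPS with 498 CPM per kb, ahead of Ifitm3 with 387 and Cmpk2 with 188 CPM per kb. In adult cells Ifitm3 ranked first with PBS and with LPS, at 248 and 366 CPM per kb, and Rsad2 moved from rank 33 to rank 10, where it stood at 15.1 CPM per kb. The order of the members thus differed between PBS and LPS in embryonic cells, while the 4 leading genes of adult PBS cultures (Ifitm3, Ifi27, Lgals9 and Bst2) also led in adult LPS cultures.

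The next comparison asked which members changed with LPS within each stage. Of the 39 tested members, 29 rose in embryonic cells (edgeR quasi-likelihood test, adjusted p under 0.05 over all tested genes), where 2.67% of all tested genes rose, and 4 rose in adult cells (Mx2, Rsad2, Cmpk2 and Slfn2), where 0.598% of all genes rose. No member fell in either stage (0 at an unadjusted p under 0.05 as well as after adjustment, and 0 in the fit with the block described next). Replicate numbers are called culture numbers here. Whether a PBS and an LPS library with a shared number derive from 1 culture is not stated in the labels, but such libraries deviated together from their group means, so a second fit kept the number as a block within each stage. With this replicate block 38 members rose in embryonic cells, where 9.43% of all genes rose, and 23 rose in adult cells, where 4.69% of all genes rose. Ifi27 was the tested member that rose in neither. The median log2 fold change of the members was 3.38 in embryonic and 1.22 in adult cells with the block, against 0.0013 and -0.0089 for all tested genes. Because 8 members passed the filter through LPS libraries alone (Mx1, Mx2, Rsad2, Cmpk2, Ddx60 and Ifi203 in both stages, Epsti1 and Ms4a4c in embryonic cells), their higher level after LPS was in part a condition of being tested.

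The counts without the block depended on the fit and on single libraries. With each stage fitted alone, in fits chosen after seeing the data, 0 of 39 members rose in embryonic cells and 18 of 37 in adult cells. The order of the embryonic and adult counts was thus reversed there. For the fits in this paragraph the share of all tested genes called was not computed. A loss of calls among the members therefore cannot be told apart from a loss over all genes. The following counts are from the fit of both stages together. Between 8 and 33 members rose in embryonic cells when 1 library at a time was left out, with 8 in the absence of embryonic PBS replicate 1 and 18 in the absence of embryonic PBS replicate 2. In adult cells the count ranged from 0 to 7, with 0 when adult PBS replicate 1, 2 or 3 or adult LPS replicate 1 or 3 was left out, 2 without adult LPS replicate 2 and 7 without embryonic PBS replicate 3. With the block, and 1 culture left out at a time, 38 members rose in embryonic cells each time, and 17 to 28 rose in adult cells.

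The change was seen culture by culture. All 39 tested members were higher with LPS in embryonic cultures 1, 2 and 3, with a median log2 ratio of 3.46, 3.88 and 3.90. In adult cultures 39, 36 and 38 members were higher, with a median log2 ratio of 0.91, 1.17 and 1.23. Of all 13038 tested genes, 6631, 7086 and 6385 were higher in embryonic cultures 1 to 3. In adult cultures 1 to 3, 6686, 6196 and 6306 of them were higher. For 35 of the 39 members the 3 embryonic ratios all lay above the 3 adult ratios, which was so for 9.66% of all tested genes. The other 4 (Rtp4, Slfn2, Apol9b and Ifi27) had ratios that overlapped between the stages.

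**Figure D2:**
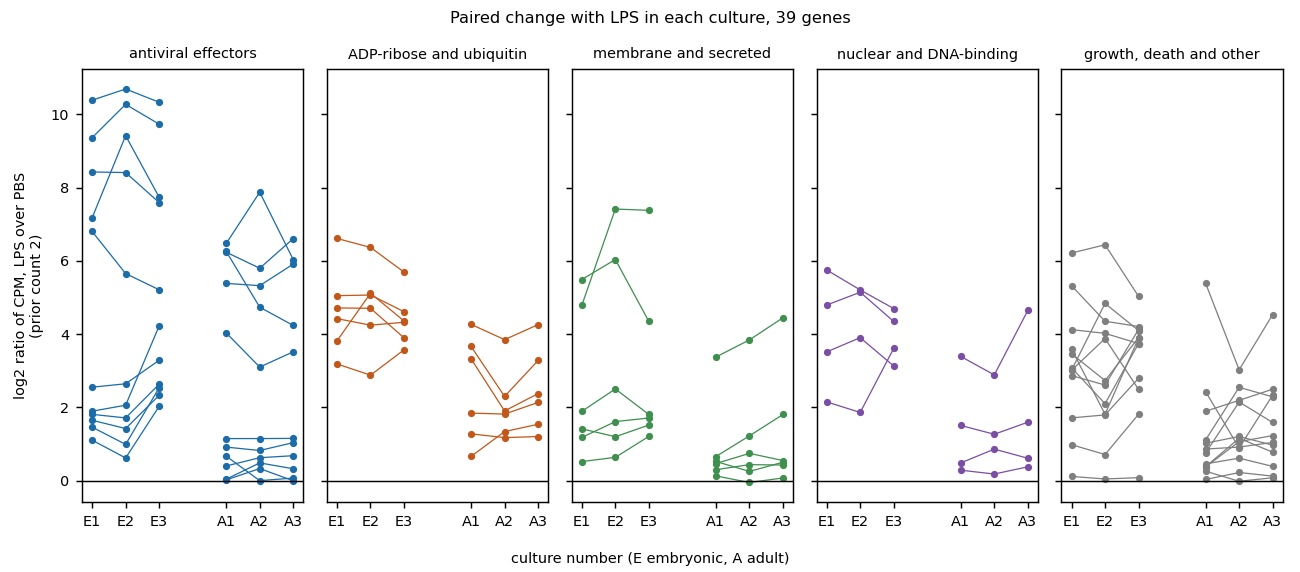
Log2 ratio of CPM, LPS over PBS within each culture (prior count of 2), for the 39 tested members split by role, with embryonic cultures 1 to 3 (E1 to E3) and adult cultures 1 to 3 (A1 to A3) on the horizontal axis and a line for each gene in each stage. The embryonic ratios are all above 0, with medians of 3.46 to 3.90, and the adult ratios sit lower, with medians of 0.91 to 1.23.

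Among the 12 listed antiviral effectors, 11 had a count and were tested. With the block all 11 rose in embryonic cells and 7 rose in adult cells. Rsad2 encodes viperin, a radical SAM enzyme that makes a nucleotide analogue which stops viral RNA synthesis, and it had the largest embryonic change. Its level was 0.392, 0.732 and 3.44 CPM in embryonic PBS cultures 1 to 3 and 619, 1328 and 4528 CPM with LPS. The adult libraries gave 0.696, 0.193 and 0.955 CPM with PBS and 68.0, 61.5 and 67.0 CPM with LPS. The groups did not overlap within a stage, and the lowest embryonic LPS library was above the highest adult LPS library. The log2 fold change was 10.47 ± 1.17 in embryonic cells (adjusted p = 0.00227) and 6.68 ± 1.04 in adult cells (adjusted p = 0.0215). For all fold changes ± gives an SE derived from the test, with 3 libraries per group unless libraries were left out.

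Cmpk2, a mitochondrial nucleotide kinase gene, lies next to Rsad2 on chromosome 12 in the opposite orientation, with 12664 bases between them (GRCm38.p6). Its level was 0.241, 0.335 and 1.85 CPM in embryonic PBS and 205, 502 and 1638 CPM in embryonic LPS cultures. Adult levels were 0.183, 0.578 and 0.136 CPM with PBS and 19.0, 36.0 and 20.0 CPM with LPS. The pair moved to a similar extent, Cmpk2 by 9.90 ± 1.15 on the log2 scale in embryonic cells (adjusted p = 0.00235) and by 6.46 ± 1.09 in adult cells (adjusted p = 0.0291). Mx1 and Mx2, neighbours on chromosome 16, belong to the dynamin-like GTPases that block incoming viruses, and RefSeq lists both as transcribed pseudogenes in this reference strain. Mx1 was at 0.151, 0.213 and 1.55 CPM in embryonic PBS and at 31.8, 194 and 347 CPM in embryonic LPS cultures. In adult cells it was at 0.110, 0 and 0 CPM with PBS and at 7.42, 2.71 and 4.11 CPM with LPS. The adult PBS libraries held 3 Mx1 counts in all against 411 with LPS, a ratio of 123 with a 95% exact counting interval of 41.7 to 598. Mx1 rose by 8.21 ± 1.17 in embryonic cells (adjusted p = 0.00597). Its adult change was 6.79 ± 1.5 without the block, where it was not called (adjusted p = 0.100). With the block the adult change was 6.84 and was called (adjusted p = 4.08e-04). Mx2 rose in both stages, by 8.18 ± 1.00 (adjusted p = 0.00286) and by 5.57 ± 1.03 (adjusted p = 0.0472).

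Ddx60, a helicase-like gene linked to RNA sensing, rose by 5.57 ± 0.98 in embryonic cells (adjusted p = 0.0141), and in adult cells by 3.78 ± 0.39 with the block (adjusted p = 0.00118). Znfx1, an RNA-binding helicase, and Mov10, another RNA helicase, rose in both stages with the block, Znfx1 by 2.83 ± 0.14 and 1.15 ± 0.13 and Mov10 by 2.07 ± 0.18 and 0.93 ± 0.18. The remaining 4 effectors were called in embryonic cells alone. These were Isg20, a nuclease that degrades RNA, Eif2ak2, the kinase PKR that halts translation, Adar, which edits adenosine in RNA, and Pnpt1, a mitochondrial RNA-degrading enzyme. Their adult log2 changes with the block lay between 0.11 ± 0.23 for Pnpt1 and 0.57 ± 0.16 for Adar (adjusted p = 0.0894). Isg20 stood at 1.63 to 3.05 CPM in embryonic PBS and 8.19 to 11.2 CPM in adult PBS cultures, and it rose to 6.24 to 36.5 CPM in embryonic LPS cultures while adult LPS cultures lay between 8.18 and 14.6 CPM.

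Upstream sequence was examined because the ISRE is the element through which type I interferon acts on such genes. RefSeq promoter entries on GRCm38.p6 were found for 34 of the 42 listed genes, and Ifi204, Ifi27, Mx1, Mx2, Parp14, Parp9, Rtp4 and Tor3a had no entry. In the 250 bases before a transcription start, the ISRE core (GAAA, any 2 bases, GAAA) was present on either strand for 10 of the 34 (29.4%), against 3.46% of 27025 genes. The core of the gamma-activated site (TTC, any 3 bases, GAA) was present for 3 of the 34 (8.82%), against 8.13% of all genes. The 10 genes with an ISRE core were Apol9a, Apol9b, Bst2, Ddx60, Ifi203, Lgals9, Rsad2, Slfn5, Tdrd7 and Trim30a, and cores in Apol9a, Apol9b and Bst2 overlapped another core. Their median log2 fold change with the block was 3.86 in embryonic cells (range 0.79 to 10.53) and 1.32 in adult cells, and for the 21 tested members with an entry and no core it was 3.10 (range 1.25 to 9.95) and 0.93. The 2 ranges overlapped nearly in full. The 250 bases upstream of 5 members are given 5′ to 3′ on the gene's strand with the ISRE core in capitals, namely of Rsad2 as the member with the largest change, of Ddx60 and Bst2 as members with a pair of cores, of Trim30a as a member with a stage difference (at the farther upstream of its 2 listed starts), and of Lgals9 as a member with a core and a small change. The windows lie at chr12:26456453-26456702 (minus strand) for Rsad2, chr8:61927837-61928086 (plus strand) for Ddx60, chr8:71537473-71537722 (minus strand) for Bst2, chr7:104465194-104465443 (minus strand) for Trim30a and chr11:78984925-78985174 (minus strand) for Lgals9. The core begins at -120 from the start for Rsad2, at -53 and -19 for Ddx60, at -130 and -124 for Bst2, at -36 for Trim30a and at -55 for Lgals9.
Rsad2: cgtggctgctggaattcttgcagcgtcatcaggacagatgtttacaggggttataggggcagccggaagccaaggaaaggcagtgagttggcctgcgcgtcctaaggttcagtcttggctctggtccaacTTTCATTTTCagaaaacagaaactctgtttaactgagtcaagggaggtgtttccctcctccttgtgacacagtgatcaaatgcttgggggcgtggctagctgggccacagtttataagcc
Ddx60: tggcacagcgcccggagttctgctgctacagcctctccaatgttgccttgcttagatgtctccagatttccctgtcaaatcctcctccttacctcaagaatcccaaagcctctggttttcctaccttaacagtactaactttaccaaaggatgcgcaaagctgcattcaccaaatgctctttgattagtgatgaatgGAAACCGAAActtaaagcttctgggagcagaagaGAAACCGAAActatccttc
Bst2: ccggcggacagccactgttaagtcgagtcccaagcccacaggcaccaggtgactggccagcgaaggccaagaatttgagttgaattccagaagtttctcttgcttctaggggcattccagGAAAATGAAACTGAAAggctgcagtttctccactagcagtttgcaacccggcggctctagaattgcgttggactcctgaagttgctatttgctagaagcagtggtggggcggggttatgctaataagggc
Trim30a: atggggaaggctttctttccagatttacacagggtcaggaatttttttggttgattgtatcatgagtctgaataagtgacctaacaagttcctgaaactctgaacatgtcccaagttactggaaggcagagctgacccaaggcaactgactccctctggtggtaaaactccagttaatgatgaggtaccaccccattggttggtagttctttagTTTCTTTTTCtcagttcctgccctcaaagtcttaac
Lgals9: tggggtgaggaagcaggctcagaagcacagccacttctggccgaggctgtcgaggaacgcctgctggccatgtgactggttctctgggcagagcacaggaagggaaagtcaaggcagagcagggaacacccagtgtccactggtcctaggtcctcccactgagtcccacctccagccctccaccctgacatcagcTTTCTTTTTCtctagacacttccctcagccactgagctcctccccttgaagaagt

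The 6 tested ADP-ribosylation and ubiquitin enzymes formed the role in which every tested member rose in both stages with the block. Parp9, Parp12 and Parp14 are ADP-ribosyltransferase family members, Dtx3l is the ubiquitin ligase that partners Parp9, Trim21 is a ligase that binds antibody-coated virus, and Trim30a is a TRIM protein known to restrain Toll-like receptor signalling. Parp14 had the largest change of the 6. It was at 2.23, 3.26 and 22.7 CPM in embryonic PBS and 225, 275 and 1179 CPM in embryonic LPS cultures. The adult libraries gave 3.41, 5.64 and 4.02 CPM with PBS and 66.8, 82.2 and 78.3 CPM with LPS. It rose by 5.90 ± 1.02 in embryonic cells (adjusted p = 0.0131), and by 4.14 ± 0.19 in adult cells with the block (adjusted p = 1.62e-05), a change that was not called without it (adjusted p = 0.119).

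Parp9 was at 4.16, 4.15 and 14.9 CPM in embryonic PBS and 90.6, 79.9 and 299 CPM in embryonic LPS cultures. Adult levels were 11.9, 14.3 and 10.7 CPM with PBS and 42.9, 50.6 and 47.2 CPM with LPS. Its log2 ratio was 4.42, 4.25 and 4.32 in the embryonic cultures and 1.84, 1.82 and 2.13 in the adult cultures, and the ratios of the stages did not overlap. With the block Parp9 rose by 4.35 ± 0.10 and 1.94 ± 0.09 (adjusted p = 1.49e-07 and 1.62e-05). Parp12 was at 8.17, 8.14 and 21.4 CPM in embryonic PBS and 74.9, 60.3 and 255 CPM in embryonic LPS cultures. In adult cells it was at 12.6, 16.6 and 14.6 CPM with PBS and 30.6, 37.5 and 33.7 CPM with LPS. With the block Parp12 rose by 3.23 ± 0.13 and 1.22 ± 0.12 (adjusted p = 2.69e-06 and 0.00111).

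Trim30a was at 1.60, 2.04 and 15.2 CPM in embryonic PBS and 43.7, 55.0 and 227 CPM in embryonic LPS cultures. The adult libraries gave 3.99, 6.70 and 3.99 CPM with PBS and 6.35, 17.0 and 11.7 CPM with LPS, where the lowest LPS library lay below the highest PBS library. It rose by 4.39 ± 0.22 and 1.2 ± 0.22 with the block (adjusted p = 1.05e-05 and 0.0179). Without it the embryonic change of Trim30a missed the threshold (adjusted p = 0.0557), and 4.98% of its 75-base transcript windows are shared with other genes, mostly Trim30d. Dtx3l and Trim21 rose by 4.90 ± 0.25 and 4.4 ± 0.30 in embryonic cells and by 3.08 ± 0.24 and 2.52 ± 0.30 in adult cells with the block. Parp9 and Dtx3l overlap by 558 bases in opposite orientation, and the strand of the reads told them apart, with 2.68% of Parp9 reads on the opposite strand. Parp14, 66951 bases from Parp9, moved by 2.19 more than Parp9 in adult cells on the log2 scale without the block, and by 1.56 more in embryonic cells.

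Among the membrane and secreted proteins, 6 of 7 were tested, and with the block all 6 rose in embryonic cells and 3 (Bst2, Ifitm3 and Rtp4) rose in adult cells. Without the block only Rtp4 and Ms4a4c were called in embryonic cells and none in adult cells (1 at an unadjusted p under 0.05, and 0 with DESeq2 as well). Ifitm3, which restricts virus entry at endosomes, was the most abundant member per length. It was at 95.3, 53.8 and 124 CPM in embryonic PBS and 216, 164 and 407 CPM in embryonic LPS cultures. Adult levels were 219, 127 and 158 CPM with PBS and 302, 212 and 230.3 CPM with LPS, so that adult groups overlapped while each culture was higher with LPS. With the block it rose by 1.5 ± 0.11 and 0.58 ± 0.11 (adjusted p = 8.62e-05 and 0.0197). Ifitm1, its neighbour at 39762 bases, stayed between 0.0964 and 4.70 CPM in the 12 libraries and was below the filter. In the fit without a filter its embryonic change was 1.28 ± 0.94 and was not called (adjusted p = 0.905).

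Lgals9 encodes galectin-9, a secreted sugar-binding protein. It was at 137, 124 and 159.9 CPM in embryonic PBS and 196, 193 and 369 CPM in embryonic LPS cultures. In adult cells it was at 159, 168 and 163 CPM with PBS and 174, 162 and 172 CPM with LPS, and the adult groups overlapped. Its embryonic change was 0.85 ± 0.22 without the block (adjusted p = 0.0883) and 0.79 ± 0.13 with it (adjusted p = 0.0057), and its adult change was 0.05 ± 0.12 (adjusted p = 0.912 with the block). Rtp4, a receptor transporter protein, rose by 5.13 ± 0.33 and 3.95 ± 0.36 with the block, and 10.5% of its transcript windows are shared with another annotated gene. Bst2, the tetherin that holds budding virus at the cell surface, rose by 1.38 ± 0.09 and 0.42 ± 0.09, and Lgals3bp, a secreted galectin partner, by 2.06 ± 0.13 in embryonic cells. Ms4a4c, of the tetraspan MS4A family, reached 3.51, 11.8 and 36.4 CPM in embryonic LPS cultures. It held 10 counts in adult LPS against 1 in adult PBS libraries, a ratio of 8.96 with a counting interval of 1.27 to 389.

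The 4 nuclear and DNA-binding members rose in embryonic cells with the block, and Ifi204 and Ifi203 also rose in adult cells. Sp100 is a structural protein of PML nuclear bodies and Daxx a histone H3.3 chaperone found in them. Sp100 was at 0.814, 1.46 and 7.36 CPM in embryonic PBS and 10.0, 22.9 and 64.9 CPM in embryonic LPS cultures. The adult libraries gave 19.2, 16.0 and 18.1 CPM with PBS and 23.4, 18.1 and 23.5 CPM with LPS, so the adult PBS level lay above every embryonic PBS library. Its embryonic change was 3.51 ± 0.16 with the block (adjusted p = 6.11e-06) and its adult change 0.28 ± 0.14 (adjusted p = 0.352). Without the block the embryonic change of Sp100 missed the threshold (adjusted p = 0.0712). Daxx rose by 2.75 ± 0.39 in embryonic cells (adjusted p = 0.00603) and its adult change was 0.65 ± 0.29 with the block (adjusted p = 0.299).

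Ifi204 and Ifi203 belong to the PYHIN family of DNA-binding proteins and lie 153330 bases apart on chromosome 1 in the same orientation. Ifi204 was at 1.33, 2.84 and 15.7 CPM in embryonic PBS and 38.7, 103 and 319.9 CPM in embryonic LPS cultures. Adult levels were 6.67, 9.44 and 7.67 CPM with PBS and 19.0, 22.8 and 23.3 CPM with LPS. Ifi203 was at 0.392, 0.915 and 5.92 CPM in embryonic PBS and 24.8, 36.3 and 156 CPM in embryonic LPS cultures. Adult cells held 0.769, 1.45 and 0.341 CPM of Ifi203 with PBS and 8.73, 11.1 and 10.2 CPM with LPS. The neighbours moved alike in embryonic cells, by 4.74 ± 0.17 for Ifi204 and 5.13 ± 0.30 for Ifi203 with the block. In adult cells Ifi203 rose by 3.64 ± 0.33 and Ifi204 by 1.46 ± 0.15. The family is repetitive, with 13.2% of the transcript windows of Ifi204 and 5.71% of those of Ifi203 shared with other genes, so reads between its members are uncertain.

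Among the 12 growth, cell death and less defined members, 11 rose in embryonic cells with the block and 5 rose in adult cells (Slfn2, Slfn5, Ifi44, Xaf1 and Tor3a). Slfn2 and Slfn5 are Schlafen genes, a family tied to growth control of immune cells, 100261 bases apart on chromosome 11. Slfn2 was at 14.0, 5.76 and 22.6 CPM in embryonic PBS and 113, 167 and 389 CPM in embryonic LPS cultures. In adult cells it was at 1.5, 2.46 and 1.47 CPM with PBS and 65.8, 20.5 and 35.5 CPM with LPS. It rose in both stages, by 3.98 ± 0.66 in embryonic cells (adjusted p = 0.0108) and by 4.50 ± 0.70 in adult cells (adjusted p = 0.0202). Slfn5 was at 0.301, 1.34 and 9.72 CPM in embryonic PBS and 27.5, 122 and 320.0 CPM in embryonic LPS cultures. Adult cells held 2.34, 16.3 and 1.91 CPM of Slfn5 with PBS and 12.9, 30.2 and 9.90 CPM with LPS. Adult culture 2, which had the highest summed level of the endothelial markers though not of Kdr, was the highest of both adult groups for Slfn5. It was also the highest for 22 of the 39 members with PBS and for 21 with LPS. The share of all tested genes was not computed, and a link with cell types was not tested. Slfn5 rose by 5.73 ± 0.41 in embryonic cells and 1.76 ± 0.37 in adult cells with the block (adjusted p = 7.18e-05 and 0.0312), and neither was called without it (adjusted p = 0.0917 and 1). The adult change of Slfn2 was thus larger than that of Slfn5 by 3.11 on the log2 scale without the block, while in embryonic cells it was smaller by 1.39.

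Ifi27, read from the row of Ifi27l1, encodes a small mitochondrial membrane protein and was the tested member that moved least in embryonic cells. It was at 41.2, 39 and 82.3 CPM in embryonic PBS and 44.6, 40.2 and 87.0 CPM in embryonic LPS cultures. The adult libraries gave 160.1, 114 and 149.9 CPM with PBS and 191, 113 and 158 CPM with LPS, so that every adult library lay above every embryonic library. Its log2 change was 0.08 ± 0.07 in embryonic cells and 0.10 ± 0.07 in adult cells with the block (adjusted p = 0.552 and 0.532). The related gene Ifi27l2a changed by 1.05 ± 0.22 in embryonic cells (adjusted p = 0.0181) and by -0.11 ± 0.21 in adult cells (adjusted p = 0.963) with the block. Tdrd7, a tudor-domain protein, was at 27.6, 34.1 and 33.5 CPM in embryonic PBS and 54.5, 55.8 and 118 CPM in embryonic LPS cultures. Adult levels were 33.3, 35.7 and 33.6 CPM with PBS and 34.0, 41.5 and 36.6 CPM with LPS. Tdrd7 rose by 1.26 ± 0.26 in embryonic cells (adjusted p = 0.031), and its adult change was 0.12 ± 0.18 with the block (adjusted p = 0.818).

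The other members of this role varied more. Xaf1, which favours cell death, rose by 4.58 ± 0.23 and 2.22 ± 0.21 with the block, Ifi44 by 3.97 ± 0.25 and 2.01 ± 0.25, and Tor3a, of the torsin ATPases, by 3.38 ± 0.20 and 0.94 ± 0.19. Samd9l, Ifi35, Epsti1 and the apolipoprotein L genes Apol9a and Apol9b rose in embryonic cells with the block, by 2.11 to 3.33, and were not called in adult cells. Apol9a and Apol9b share 13.8% and 43.3% of their transcript windows with other genes, mostly each other, so their separate values are uncertain. Epsti1 was close to the floor in adult cells, at 0.0341 to 0.110 CPM with PBS and 0.163 to 0.277 CPM with LPS, and it reached 3.65, 16.6 and 41.8 CPM in embryonic LPS cultures. The order of these levels, culture 1 below culture 2 below culture 3, was shared by 23 of the 39 tested members in embryonic LPS libraries. The share of all tested genes in this order was not computed. The summed level of the 12 macrophage markers had the same order there, while Mrc1 and Cx3cr1 among them did not. A link between the 2 was not tested.

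**Figure D3:**
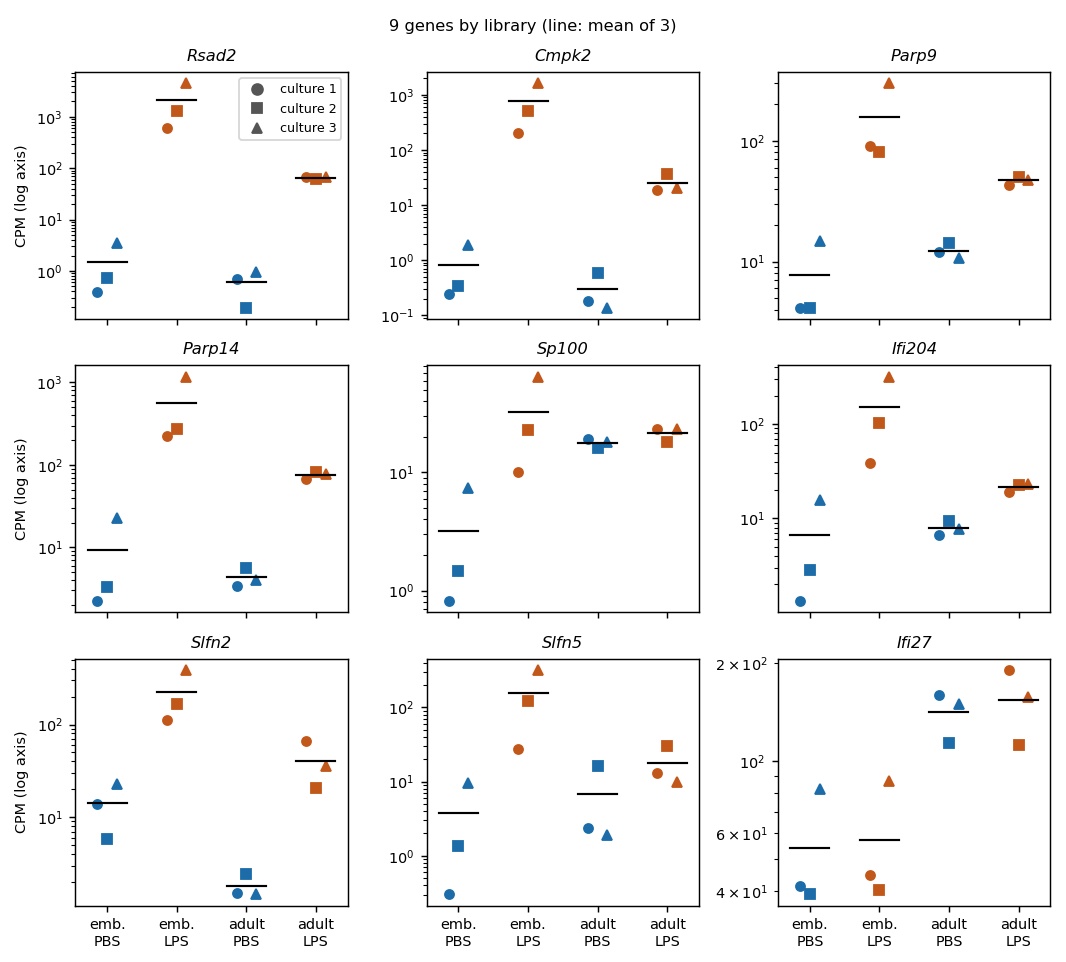
Level in CPM (log axis, with a range of its own for each gene) of 9 members in the 12 libraries, with PBS in blue, LPS in orange, symbols for culture number and a line at the mean of 3. Rsad2 and Cmpk2 show the widest gap between PBS and LPS in both stages, Sp100 moves in embryonic cells from below the adult level, Slfn2 rises in both stages, and Ifi27 stays at 39 to 87.0 CPM in embryonic and 113 to 191 CPM in adult cells.

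Whether the change with LPS differed between the stages was tested as a stage-by-LPS term. Without the block 0 of the 39 members were called by edgeR, as were 0% of all tested genes, with 22 members at an unadjusted p under 0.05 and 1 member (Tor3a) called by DESeq2. With the block 16 members had a larger change in embryonic than in adult cells, where 0.798% of all tested genes did. At an unadjusted p under 0.05 it was 33 of the 39 members. No member had a larger change in adult cells (0 at an unadjusted p under 0.05). The smallest adjusted p values belonged to Parp9 (difference of 2.41 ± 0.12, adjusted p = 2.85e-04), Sp100 (3.23 ± 0.21, adjusted p = 8.97e-04), Ifi204 (3.28 ± 0.22, adjusted p = 8.97e-04), Parp12 (2.01 ± 0.17, adjusted p = 0.00199), Trim30a (3.19 ± 0.31, adjusted p = 0.00403) and Rsad2 (3.86 ± 0.42, adjusted p = 0.0073). The rest of the 16 were Cmpk2, Ifi35, Bst2, Parp14, Xaf1, Tor3a, Ifitm3, Lgals3bp, Znfx1 and Slfn5, with differences from 0.92 ± 0.15 for Ifitm3 to 3.96 ± 0.55 for Slfn5. When adult culture 1, 2 or 3 was left out, the count fell to 6, 8 and 7, and without an embryonic culture it was 13, 18 and 19.

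The members thus fell into 4 sets with the block, besides Ifi27. The first set of 13 rose in both stages with a larger change in embryonic cells: Rsad2, Cmpk2, Bst2, Parp9, Parp12, Parp14, Xaf1, Tor3a, Trim30a, Ifitm3, Znfx1, Slfn5 and Ifi204. The second set of 10 rose in both stages with no called difference between them: Mx1, Mx2, Ifi44, Rtp4, Dtx3l, Trim21, Ddx60, Mov10, Slfn2 and Ifi203. For Slfn2 the embryonic minus adult difference was -0.44 ± 0.63, and for the other 9 it lay between 1.14 ± 0.25 for Mov10 and 2.73 ± 1.02 for Mx2. The third set of 3, Ifi35, Sp100 and Lgals3bp, rose in embryonic cells, was not called in adult cells and differed between the stages. The last 12 (Isg20, Eif2ak2, Samd9l, Lgals9, Adar, Daxx, Epsti1, Apol9a, Apol9b, Ms4a4c, Pnpt1 and Tdrd7) were called in embryonic cells alone, and the difference between the stages was not called, so that a response particular to embryonic cells was not shown for them.

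**Figure D4:**
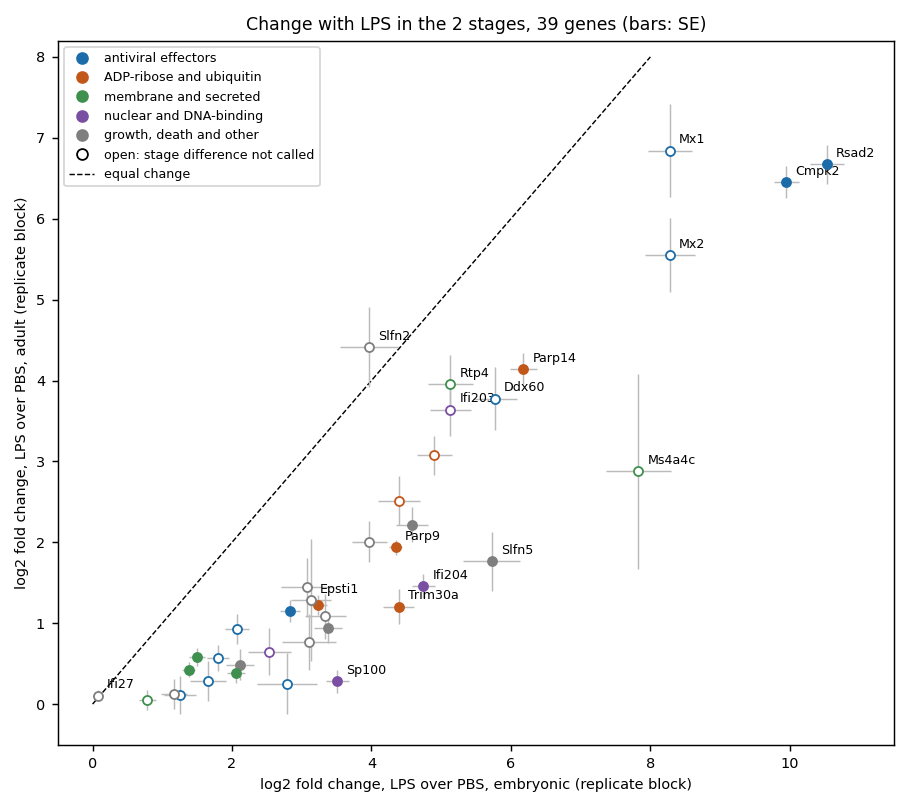
Log2 fold change with LPS (replicate block) in embryonic cells on the horizontal axis and in adult cells on the vertical axis for the 39 tested members, coloured by role, with SE bars and a dashed line of equal change. Filled points are the 16 members with a called stage difference; 37 of the 39 points lie below the line, with Slfn2 above it and Ifi27 close to it.

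In PBS cultures the stages differed for a single member. Slfn2 was higher in embryonic cells, by 2.98 ± 0.66 on the log2 scale (adjusted p = 0.0362), where 1.51% of all tested genes were higher. No member was called lower in embryonic cells, where 2.57% of all genes were, with 6 members lower at an unadjusted p under 0.05. DESeq2 called 6 members in either direction. The count was between 0 and 4 when 1 library was left out, and 0 without embryonic PBS replicate 1, any adult PBS replicate or adult LPS replicate 3. Embryonic culture 3 held the highest embryonic PBS level for 32 of the 39 members (the share of all tested genes was not computed). With both of its libraries left out, 9 members were lower in embryonic PBS cells, where 2.43% of all genes tested in that fit were lower (Sp100 by -3.97 ± 0.42, Isg20 by -2.04 ± 0.42, Xaf1 by -1.96 ± 0.32, Ifi27 by -1.83 ± 0.24, Lgals3bp by -1.80 ± 0.18, Parp9 by -1.57 ± 0.16, and Ifi35, Parp12 and Znfx1 by -0.85 to -0.69), and Slfn2 was again higher (2.45 ± 0.55), as were 1.45% of all genes.

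The libraries of embryonic culture 3 bore on the LPS comparisons as well. Without them and without the block 30 members rose in embryonic cells, where 1.86% of all genes tested in that fit rose, and 16 rose in adult cells, where 1.38% did. In the same fit 5 members had a larger change in embryonic cells (Parp9, Tor3a, Znfx1, Parp12 and Lgals3bp), as had 0.137% of all genes. The embryonic log2 fold change of Rsad2 was then 10.71 ± 0.72, of Cmpk2 10.20 ± 0.79, of Parp9 4.33 ± 0.18 and of Sp100 3.81 ± 0.43. Some of the 30 members called there moved by more than 1.5 times in fold. The change was upward for Mx2 (9.59 ± 0.78), Mx1 (9.19 ± 1.18), Rtp4 (5.84 ± 0.39), Ddx60 (6.31 ± 0.81), Trim30a (4.73 ± 0.51) and Ifi203 (5.51 ± 0.66). It was downward for Daxx (1.97 ± 0.16), Apol9a (2.80 ± 0.31) and Eif2ak2 (1.18 ± 0.19).

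The signalling genes of the pathway were followed as well. Of 19 such genes, chosen with earlier results known, 11 rose in embryonic cells without the block and 16 with it. Of all tested genes 2.67% and 9.43% rose there. In adult cells 2 (Ifnar1 and Irf1) rose without the block and 14 with it, against 0.598% and 4.69% of all tested genes. With the block 5 had a larger change in embryonic cells (Stat2, Irf7, Irf9, Usp18 and Isg15), as had 0.798% of all tested genes. None of the 19 had a larger change in adult cells (0 called, 2 at an unadjusted p under 0.05). Ifnb1, the gene of interferon beta, had 0 counts in all 6 PBS libraries and reached 1.33, 12.6 and 24.1 CPM in embryonic LPS and 1.11, 0.154 and 0.259 CPM in adult LPS cultures. Against a floor of 3 counts per library this was at least 140.2-fold higher in embryonic and at least 4.26-fold higher in adult cells. The adult bound rested on 1 library, and it was 1.74-fold without adult LPS replicate 1. The embryonic bound was 77.2-fold without embryonic LPS replicate 3 and 203-fold without embryonic LPS replicate 1. Irf7, which amplifies interferon transcription, rose by 5.80 ± 0.26 and 1.72 ± 0.23, and Irf9 by 2.60 ± 0.15 and 0.94 ± 0.15.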

How the data were processed

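The data were polyA-selected, stranded RNA-seq of 12 libraries, sequenced as single-end 75-base reads. The authors aligned the reads with STAR to GRCm38 and deposited raw read counts per gene for each library, unstranded and for each strand. The column for the strand of the library was used, as counts without normalization. Rows for unmapped, multimapping, ambiguous and unassigned reads were left out (unassigned reads came to 7.49% to 8.38%). Samples were grouped by their titles. Counts were fitted with edgeR 4.0.16 (quasi-likelihood, TMM factors, R 4.3.3) over all 12 libraries and 13038 genes, with p-values adjusted by Benjamini and Hochberg over all of them and 0.05 as the threshold. The block was the replicate number within a stage, for which LPS and PBS libraries of equal number correlated at 0.610 to 0.850 in their deviations. The common coefficient of variation was 0.340 without and 0.126 with it. P-values weigh a change against the spread between these libraries. With the block that spread is the part left after the levels of the cultures are removed. An SE is the absolute log2 fold change divided by the square root of the F statistic of its test, so it carries the same spread. Levels are CPM with TMM factors, counting intervals cover counting error only, and log2 ratios used a prior count of 2. The fits were also run on simulated counts with changes set in embryonic LPS libraries alone and the same spread for all genes. The outcome is not given here, and no result above rests on it. DESeq2 1.42.0 was an alternative. Coordinates, neighbours and upstream sequences are from RefSeq (GRCm38.p6), exon lengths and shared windows from GENCODE M21. The members, the other gene lists and their roles were chosen with earlier results of these data known. From the list of signalling genes 1 gene is not reported here. All members were named by role. Values in every library were given for the 3 largest changes per stage (mean of at least 1 CPM), the 6 smallest p of the stage difference with the block, the 3 smallest embryonic changes, the 3 most abundant per length and neighbours that moved apart by more than 2 on the log2 scale.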

Additional observations from a re-analysis of the deposited data

Results flagged for a closer look

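In the fit with the replicate block 16 members differed between the stages in their change with LPS, with 33 at an unadjusted p under 0.05. The embryonic minus adult difference in log2 fold change was 3.96 for Slfn5, 3.86 for Rsad2, 3.50 for Cmpk2, 3.28 for Ifi204, 3.23 for Sp100 and 3.19 for Trim30a. It was 2.44 for Tor3a, 2.41 for Parp9, 2.37 for Xaf1, 2.04 for Parp14 and 2.01 for Parp12. It was smallest for Znfx1 (1.68), Lgals3bp (1.67), Ifi35 (1.63), Bst2 (0.956) and Ifitm3 (0.916). Without the block edgeR called 0 members over the 12 libraries, with 22 at an unadjusted p under 0.05, DESeq2 called 1 (Tor3a), and edgeR called 5 when embryonic culture 3 was left out.

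Reads on the strand opposite to Parp9, which no comparison used, were more frequent in every LPS library than in any PBS library of the same stage, with a median of 67 counts in embryonic LPS and 45 counts in adult LPS libraries. Dtx3l overlaps Parp9 on that strand by 558 bases and itself rose with LPS. With the counts of both strands added 29 members rose in embryonic and 4 in adult cells.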

How the results depend on the processing

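With the replicate block, members risen in adult cells went from 4 to 23 and members with a stage difference from 0 to 16, while those risen in embryonic cells went from 29 to 38. The stage difference in PBS cultures could not be fitted with the block, since it lies between cultures. DESeq2 called 12 members in adult cells, 1 for the stage difference in the response and 6 in PBS cultures. At an adjusted p under 0.01 the counts were 13 in embryonic and 0 in adult cells and 0 in PBS cultures. With the block and a log2 fold change of at least 2, 13 rose in adult cells. In fits chosen after seeing the data, leaving out embryonic culture 3 gave 16 members in adult cells, 5 for the stage difference and 10 in PBS cultures, and fitting each stage alone without the block gave 0 in embryonic and 18 in adult cells. Leaving out 1 library at a time gave 8 to 33, 0 to 7, 0 to 0 and 0 to 4 members for the embryonic, adult, stage difference and PBS counts, and leaving out 1 culture with the block gave 38 to 38, 17 to 28 and 6 to 19 for the first 3. DESeq2 size factors, library totals, no filter and a filter of 1 CPM kept each of these counts within 1.5 times. Shares of all tested genes called were computed for the fits with and without the block and without embryonic culture 3. For the other alternatives they were not computed. The causes were not tested.

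Direction changed for Ifi27, Pnpt1, Mx1, Rtp4 and Slfn2, in differences that were not called with all libraries in. The embryonic log2 change of Ifi27 was -0.10 with library totals. Leaving out 1 library or culture, it ranged from -0.38 to 0.51 for Ifi27 in embryonic and -0.065 to 0.30 in adult cells, and from -0.024 to 0.26 for Pnpt1 in adult cells (with the block -0.0029 to 0.16). The embryonic minus adult difference ranged from -0.49 to 0.39 for Ifi27 (block -0.094 to 0.052), -1.90 to 3.21 for Mx1 (block -1.38 to 2.29), -0.032 to 2.72 for Rtp4 and -1.22 to 0.021 for Slfn2 (block -1.07 to 0.13). Depth set a limit for Ms4a4c and Epsti1 in adult cells, which stood near the floor of 3 counts.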
